A study of Homo sapiens with 33 samples.

Results

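The ERBB receptors and a set of their negative regulators were followed here in 3 head and neck squamous cell carcinoma (HNSCC) cell lines under EGFR blockade. The set was given as 10 gene symbols and each was found as a row of the deposited count table, 10 of 56470 symbols. It comprised 4 receptors, EGFR, ERBB2, ERBB3 and ERBB4, and 6 inhibitors, ERRFI1, LRIG1, LRIG3, CBL, CBLB and SOCS3.

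EGFR is a receptor tyrosine kinase of squamous epithelium that pairs with itself or with ERBB2, ERBB3 or ERBB4 when a ligand such as AREG or TGFA is bound, and it then signals through the RAS-ERK and PI3K pathways. ERBB2 has no known soluble ligand and acts as a partner, ERBB3 has a weak kinase and recruits PI3K, and ERBB4 binds neuregulins. The inhibitors act at different steps: ERRFI1 (MIG6) binds the kinase domain and is itself an ERK-induced feedback gene, LRIG1 is a membrane protein that promotes receptor loss, LRIG3 is its relative, CBL and CBLB are ubiquitin ligases that mark active receptors for degradation, and SOCS3 restrains JAK-STAT signalling downstream of cytokine receptors.

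RNA was collected daily from SCC1 (UM-SCC-1), SCC6 (UM-SCC-6) and SCC25, established HNSCC lines, while they grew with cetuximab at 100 nM, which blocks EGFR as an antibody, or with PBS as the control. Sequencing gave 33 libraries, with PBS on days 0 to 5 and cetuximab on days 1 to 5, so that each line had 1 library per treatment and day. The exception was cetuximab-treated SCC6, where 2 libraries were labelled day 2 and none day 1, and these are called 2a and 2b. By label, each group of 5 libraries spans days 1 to 5, or days 2 to 5 for cetuximab-treated SCC6. The spread of a group thus holds time as well as culture and library preparation. Nothing in the labels marks separate cultures, and p-values measure the spread between these libraries only.

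The libraries held 28508758 to 80727478 estimated counts. The 5 flow cells of the sequencer, named A to E, followed line and treatment closely. In SCC1, PBS of days 0 to 4 was on B, and PBS of day 5 and all cetuximab libraries were on C. In SCC6, PBS of days 0 and 1 was on C, PBS of days 2 to 5 and cetuximab 2a, 2b and day 3 were on D, and cetuximab of days 4 and 5 was alone on E, at the greatest depths of the series. In SCC25, all PBS libraries and cetuximab of days 1 and 2 were on A, and cetuximab of days 3 to 5 was on B. All 7 squamous epithelial markers were at 1.02 CPM (counts scaled to a common library total) or more in every library, while 3 of 5 immune markers, PTPRC, CD3E and MS4A1, never reached 1 CPM. The other immune markers did: CD14 reached 7.13 CPM, and CD68 ran from 3.91 to 234 CPM.

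On GRCh37 with the GENCODE annotation, EGFR spans chr7:55086710-55279321, ERBB2 chr17:37844167-37886679, ERBB3 chr12:56470583-56497289 and ERBB4 chr2:212240442-213403565. ERRFI1 spans chr1:8064464-8086369, LRIG1 chr3:66429221-66551687 and LRIG3 chr12:59265931-59314285. CBL spans chr11:119077008-119184636, CBLB chr3:105374305-105588396 and SOCS3 chr17:76352859-76356158. Their canonical transcripts have between 2 exons (SOCS3) and 28 exons (EGFR, ERBB3 and ERBB4), and are 2.73 to 12.1 kb long. The gene EGFR-AS1 overlaps EGFR on the opposite strand and did not exceed 2.49 CPM of the library total, where EGFR was never below 614 CPM. Larger partners on the opposite strand are PGAP3 and MIEN1 at ERBB2 (up to 31.2 and 30.7 CPM), MCAM at CBL (up to 213 CPM) and SLC25A26 at LRIG1 (up to 21 CPM, above LRIG1 in SCC1 and SCC6). The library kit marks strand, but the strand setting of the counting is not given in the sources used here, so these genes may share reads with their partners.

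The 250 bases before the canonical start are shown for EGFR, the target of cetuximab, and for ERRFI1, the member that fell in all 3 lines. They are read 5′ to 3′ on the strand of the gene from GRCh37, at chr7:55086460-55086709 (plus strand) and chr1:8086370-8086619 (minus strand), and capitals mark matches to the motifs named after them.
EGFR: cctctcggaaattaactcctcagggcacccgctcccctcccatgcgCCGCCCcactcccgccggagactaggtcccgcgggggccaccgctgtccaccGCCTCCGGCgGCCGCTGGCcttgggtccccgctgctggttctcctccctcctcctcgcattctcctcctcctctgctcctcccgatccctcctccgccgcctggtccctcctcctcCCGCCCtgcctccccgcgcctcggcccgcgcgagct
ERRFI1: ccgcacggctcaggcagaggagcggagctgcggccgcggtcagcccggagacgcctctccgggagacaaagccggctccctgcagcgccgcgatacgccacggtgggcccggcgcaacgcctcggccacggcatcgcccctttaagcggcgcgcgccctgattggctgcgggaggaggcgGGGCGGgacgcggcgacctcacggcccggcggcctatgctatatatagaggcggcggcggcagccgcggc
The motifs were searched on both strands as GCCNNNGGC (TFAP2, a family of epithelial transcription factors), TGANTCA (AP-1), CACGTG (E-box), GTAAACA (FOXO) and GGGCGG (GC box). TFAP2 matches were found upstream of EGFR (2), LRIG1 (1), LRIG3 (1) and CBL (3), and in 25.6% of all 19874 windows of protein-coding genes. The TFAP2 and GC-box letters can overlap. The ERBB3 window held an AP-1 match, which 4.69% of windows have. LRIG3 held an E-box, found in 7.87% of windows. The ERRFI1 window matched the GC box alone, as 59.1% of windows do at least once. Neither printed window matched FOXO, found in 2.06%.

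Per kilobase of canonical transcript, so that genes can be compared, EGFR and ERRFI1 were the most abundant members in every line. With PBS, EGFR stood at 60.6 ± 2.36 CPM per kb in SCC1, 93.2 ± 6.09 in SCC6 and 104.6 ± 1.69 in SCC25 (SD, n = 5 each), and ERRFI1 at 81 ± 6.73, 75.2 ± 14.9 and 116 ± 20.1 (SD, n = 5 each). The 2 genes overlapped in SCC25 and SCC6 with PBS but not in SCC1, where ERRFI1 was higher in each library. With cetuximab the order was EGFR above ERRFI1 in each line, with no overlap, at 102.8 ± 6.13 against 31.2 ± 4.82 CPM per kb in SCC6 (SD, n = 5 each). ERBB2 came next among the receptors, at 23.3 ± 0.526 CPM per kb in SCC1, 12.6 ± 3.33 in SCC6 and 10.6 ± 0.621 in SCC25 with PBS (SD, n = 5 each). ERBB4 was near the limit of detection throughout, with 1 to 38 estimated counts per library. EGFR made up 67.6 ± 1.16% of the summed receptor level per kb in SCC1 with PBS and 67.3 ± 1.8% with cetuximab, 82.6 ± 3.65% and 79.4 ± 5.05% in SCC6, and 88.5 ± 0.456% and 87.8 ± 1.31% in SCC25 (SD, n = 5 each). The share of EGFR thus overlapped between treatments in each line. The share of ERBB3 in SCC25 was 2.35 to 2.77% with PBS and 3.27 to 3.38% with cetuximab, without overlap.

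**Figure D1:**
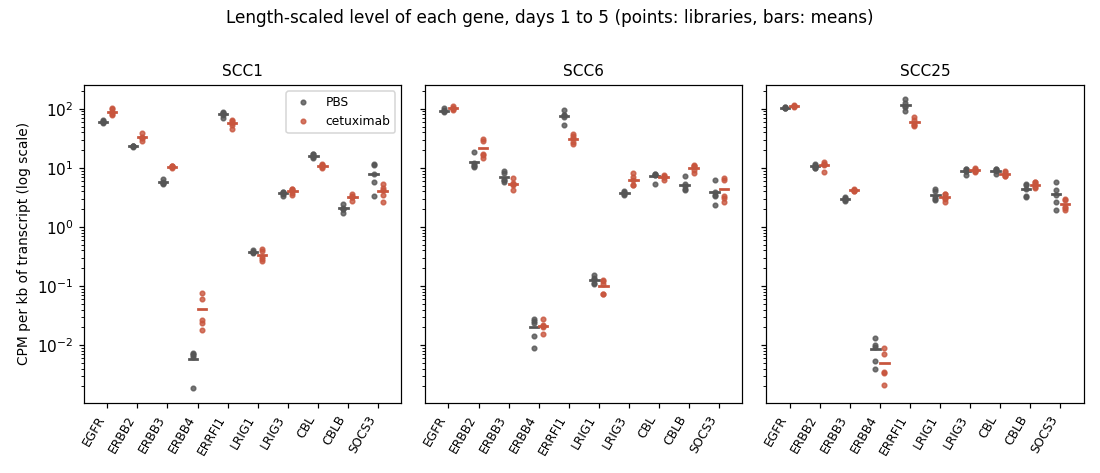
Level of the 10 genes in CPM per kb of canonical transcript (vertical log axis) in the libraries of days 1 to 5, with PBS in grey and cetuximab in red, points for libraries and bars for means of 5. EGFR and ERRFI1 lie at the top in each line and ERBB4 at the bottom, and LRIG1 lies higher in SCC25 (mean 3.51 with PBS) than in SCC1 (0.381) or SCC6 (0.129).

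With PBS, the lines differed in most members. Between SCC6 and SCC1, 7 of 9 tested members differed (68.9% of all genes tested did), between SCC25 and SCC1 9 of 9 (68.3%) and between SCC25 and SCC6 7 of 9 (72%). SCC25 shared no flow cell with the others in these groups, so that line and flow cell cannot be told apart for it. SCC1 of day 5 and SCC6 of day 1 were both on flow cell C, and these 2 libraries held EGFR at 586 and 891 CPM, LRIG1 at 2.00 and 0.601 CPM and CBL at 188 and 87.0 CPM. LRIG1 differed most, at 15.2 to 23.5 CPM in SCC25, 1.95 to 2.17 in SCC1 and 0.586 to 0.838 in SCC6, and was higher in SCC25 than in SCC6 by a log2 difference of 4.72 (SE 0.16, edgeR quasi-likelihood adjusted p = 2.63e-14). EGFR was lowest in SCC1, and the step from SCC6 to SCC25 was small (log2 difference 0.14, SE 0.06, edgeR quasi-likelihood adjusted p = 0.0473) beside that from SCC1 to SCC6 (0.64, SE 0.06, edgeR quasi-likelihood adjusted p = 2.99e-08). The call of the small step held in 3 of 15 fits that left out 1 library (highest adjusted p = 0.128), so that the order of SCC6 and SCC25 is not firm. ERBB2 was highest in SCC1, and its difference between SCC25 and SCC6 passed in 11 of those 15 fits. ERRFI1 in SCC6 and SCC1 (log2 difference -0.09, 95% interval -0.38 to 0.21), LRIG3 in SCC6 and SCC1 (0.04, -0.14 to 0.21), CBLB in SCC25 and SCC6 (-0.30, -0.65 to 0.05) and SOCS3 in SCC25 and SCC6 (-0.11, -0.86 to 0.65) were neighbours that did not pass the test.

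Cetuximab was then compared with PBS within each line over days 1 to 5, which asks how the receptors and their inhibitors respond while the receptor itself is blocked. In SCC1, 8 of 10 members passed an adjusted p of 0.05, 5 higher and 3 lower, where 44.5% of all genes tested did (22.5% higher and 22% lower). In SCC6 it was 5 of 9 tested, 3 higher and 2 lower, against 30.1% of all genes (15.5% higher and 14.5% lower). In SCC25 it was 2 of 9 tested, 1 higher and 1 lower, against 18.2% (8.72% higher and 9.47% lower). ERBB4 was removed by the filter on low counts in SCC6 and SCC25. The 5 libraries of each treatment did not overlap for 7 members in SCC1 (31.2% of all genes), 3 in SCC6 (19.1%) and 3 in SCC25 (14.9%). The median log2 fold change of the members tested was 0.331, 0.09 and 0.033, against 0.021, 0.004 and 0.006 over all genes. ERRFI1 and ERBB3 passed in all 3 lines, ERRFI1 lower in each and ERBB3 higher in 2 and lower in 1, while LRIG1 passed in none. In bulk RNA, fewer cells that carry a transcript and less of it per cell cannot be told apart.

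**Figure D2:**
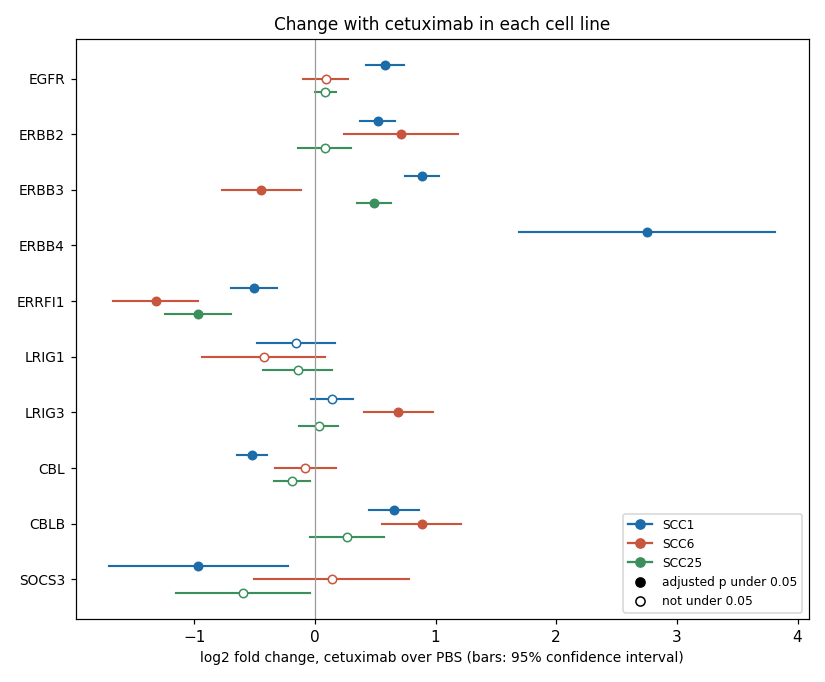
Log2 fold change of each gene with cetuximab over PBS (horizontal axis) in SCC1, SCC6 and SCC25, with 95% confidence intervals as bars and filled points where the adjusted p was under 0.05. ERRFI1 lies left of 0 in each line (-0.51, -1.32 and -0.97), ERBB3 on both sides, and ERBB4 has a value in SCC1 alone because it was not tested in the others.

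EGFR, the target, rose in SCC1. Its level was 576, 617, 632, 591 and 586 CPM on days 1 to 5 with PBS and 775, 793, 875, 999 and 1007 CPM with cetuximab. Every cetuximab library lay above every PBS library, and the gap was wider on the later days. The log2 fold change was 0.58 (SE 0.07, edgeR quasi-likelihood adjusted p = 3.37e-05), or 1.5-fold. In SCC6, EGFR was 859.6 to 1012 CPM with PBS and 953 to 1111 with cetuximab, with overlap, at a log2 fold change of 0.09 (95% interval -0.10 to 0.28). In SCC25 it was 1021 to 1063 CPM with PBS and 1072 to 1150.0 with cetuximab. These groups did not overlap, yet the difference was 0.09 on the log2 scale (95% interval -0.001 to 0.173, edgeR quasi-likelihood adjusted p = 0.157). It passed with DESeq2 (adjusted p = 0.0443) and with libraries scaled by their totals alone (edgeR adjusted p = 0.0383).

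ERBB2 rose in SCC1 and SCC6. In SCC1 it was 103 to 108 CPM with PBS and 129, 147, 154, 146 and 177 CPM on days 1 to 5 with cetuximab, a log2 fold change of 0.52 (SE 0.07, edgeR quasi-likelihood adjusted p = 4.83e-05) with no overlap. In SCC6 the levels followed the flow cells. With PBS, ERBB2 was 88.0 and 84.3 CPM on days 0 and 1 (flow cell C) and 50.6, 47.9, 54.5 and 49.9 CPM on days 2 to 5 (D), and with cetuximab it was 67.7, 79.1 and 74.3 CPM in 2a, 2b and day 3 (D) and 140.0 and 129 CPM on days 4 and 5 (E). The log2 fold change over all 10 libraries was 0.71 (SE 0.22, edgeR quasi-likelihood adjusted p = 0.0264). Within flow cell D, 3 cetuximab libraries against 4 PBS libraries, the groups did not overlap and the log2 fold change was 0.52 (edgeR adjusted p = 0.000648). The call was lost with day as a block (edgeR adjusted p = 0.0572), with PBS of day 0 added (0.0581) and in 6 of 10 fits that left out 1 library (highest adjusted p = 0.0795). In SCC6 the block joined days 1 and 2, as no cetuximab library was labelled day 1. In SCC25, ERBB2 was 45.8 to 52.1 CPM with PBS and 38.3 to 58.3 with cetuximab (log2 fold change 0.08, 95% interval -0.14 to 0.30), and the lowest of these, on day 3, decided the outcome: without it the log2 fold change was 0.18 (edgeR adjusted p = 0.0428).

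ERBB3 moved in opposite directions. In SCC1 it was 36.9, 30.7, 29.6, 31.3 and 32.1 CPM on days 1 to 5 with PBS and 59.8, 58.0, 54.8, 60.6 and 60.4 CPM with cetuximab, at nearly the same level from day 1 on. The log2 fold change was 0.89 (SE 0.07, edgeR quasi-likelihood adjusted p = 7.65e-07). In SCC25 it was 15.7, 16.7, 15.4, 18.1 and 17.7 CPM with PBS and 23.0, 23.3, 22.8, 24.7 and 24.1 CPM with cetuximab, again without overlap and with a log2 fold change of 0.49 (SE 0.07, edgeR quasi-likelihood adjusted p = 0.000494). In SCC6 it was lower, at 50.2, 45.8, 35.0, 34.3 and 32.9 CPM with PBS and 37.4, 28.9, 23.9, 29.9 and 30.8 CPM in 2a, 2b and days 3 to 5 with cetuximab. The groups overlapped, and the log2 fold change was -0.44 (SE 0.15, edgeR quasi-likelihood adjusted p = 0.0426). That call was lost within flow cell D (-0.32, edgeR adjusted p = 0.186), with flow cell as a covariate (edgeR adjusted p = 0.131) and in 7 of 10 fits without 1 library. The rises in SCC1 and SCC25 passed in each of the 10 fits without 1 library.

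ERBB4 rose in SCC1 from a very low level. Its estimated counts were 3, 1, 4, 4 and 4 on days 1 to 5 with PBS and 10, 13, 13, 30 and 38 with cetuximab, or 0.0224 to 0.0887 CPM against 0.222 to 0.912 CPM. The highest values were those of days 4 and 5. The log2 fold change was 2.75 (95% interval 1.69 to 3.82, edgeR quasi-likelihood adjusted p = 0.000522). With flow cell as a covariate it was 2.50 (edgeR adjusted p = 0.0732) and within flow cell C, where PBS had 1 library, 2.49 (edgeR adjusted p = 0.133). In SCC6 the libraries held 3 to 12 counts with PBS and 6 to 19 with cetuximab, and in SCC25 2 to 7 and 1 to 5. Scaled for depth, the means were 0.243 and 0.258 CPM in SCC6, and 0.102 and 0.0609 CPM in SCC25. The filter on low counts left ERBB4 out of the test within those lines. In the split of SCC6 by period, where ERBB4 was tested, the log2 fold change was -0.07 on days 1 to 3 (95% interval -1.10 to 0.97) and 0.14 on days 4 and 5 (-1.05 to 1.34). Both intervals lie below the estimate of 2.75 in SCC1, which is over days 1 to 5. For the same 2 periods DESeq2 gave 2.20 (SE 0.73) and 3.23 (SE 0.79) in SCC1. In the fit over all lines the change of ERBB4 minus that in SCC1 was -2.71 in SCC6 (SE 0.58) and -3.45 in SCC25 (SE 0.67), at edgeR quasi-likelihood adjusted p of 0.00104 and 0.000766.

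**Figure D3:**
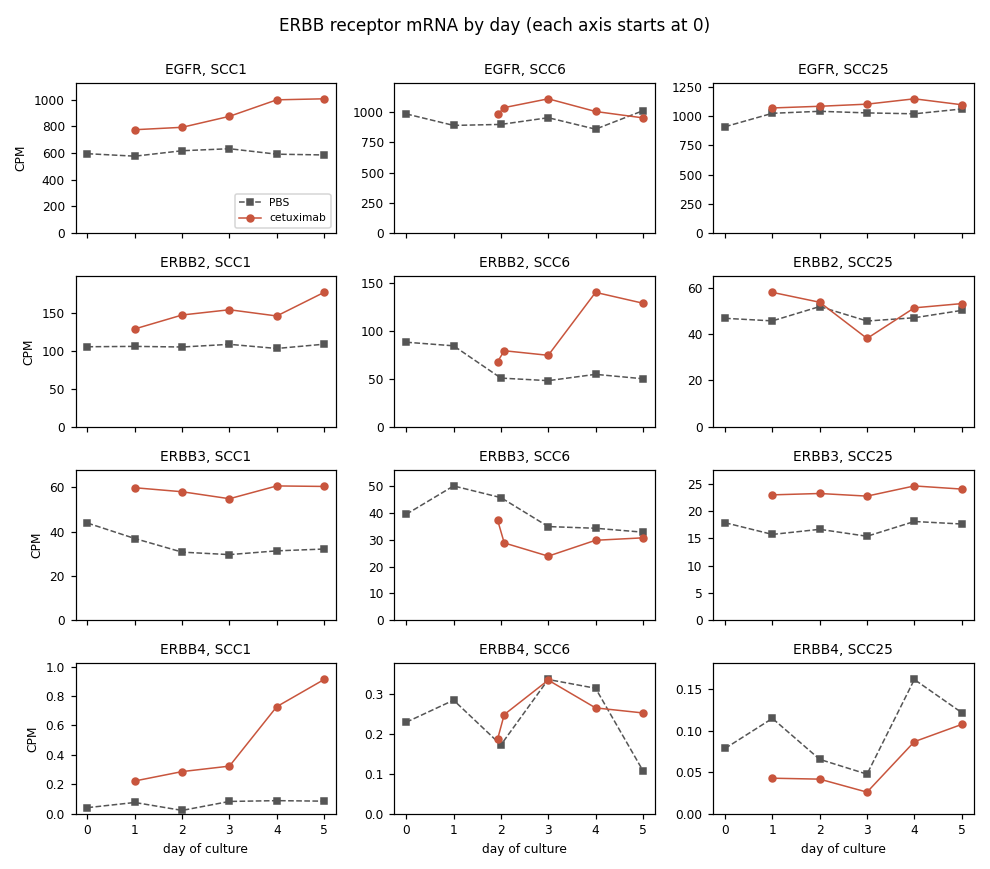
Receptor levels in CPM (vertical axis, from 0) by day of culture, with PBS as grey squares and cetuximab as red circles, 1 library per point. The 2 cetuximab libraries of SCC6 labelled day 2 are drawn side by side at day 2. The 2 curves are apart on all days for EGFR, ERBB2, ERBB3 and ERBB4 in SCC1, while ERBB2 in SCC6 steps down with PBS after day 1 (84.3 to 50.6 CPM) and up with cetuximab after day 3 (74.3 to 140.0 CPM).

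Of the inhibitors, ERRFI1 fell in each line. In SCC1 it was 219, 242, 269, 258 and 267 CPM on days 1 to 5 with PBS and 141, 162, 176, 195 and 199 CPM with cetuximab. In SCC6 it was 163, 223, 243, 246 and 289.6 CPM with PBS and 97.4, 116, 106, 79.5 and 84.6 CPM in 2a, 2b and days 3 to 5 with cetuximab. In SCC25 it was 282, 347, 446, 392 and 333 CPM with PBS and 159, 165, 226, 198 and 174 CPM with cetuximab. On days 1 to 5 no cetuximab library reached the level of any PBS library of its line. The log2 fold changes were -0.51 (SE 0.09) in SCC1, -1.32 (SE 0.16) in SCC6 and -0.97 (SE 0.12) in SCC25, with edgeR quasi-likelihood adjusted p of 0.000507, 0.000166 and 0.000504. They passed in all 30 fits that left out 1 library and with flow cell as a covariate. With PBS, ERRFI1 was lowest on day 0 in each line, at 178, 148 and 187 CPM, and the cetuximab levels of SCC1 on days 3 to 5 were close to that start, at 176 to 199 CPM. In SCC6 all 5 cetuximab libraries lay under the day 0 level, whereas cetuximab of days 4 and 5 in SCC1 and of days 3 and 4 in SCC25 lay above it.

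Of the membrane inhibitors, LRIG3 changed in SCC6 and LRIG1 did not pass in any line. LRIG1 was 1.95 to 2.17 CPM with PBS and 1.43 to 2.26 with cetuximab in SCC1, 0.586 to 0.838 and 0.386 to 0.686 in SCC6, and 15.2 to 23.5 and 14.2 to 19.3 in SCC25. Its log2 fold changes were -0.16, -0.42 and -0.14, with 95% intervals of -0.48 to 0.16, -0.94 to 0.09 and -0.43 to 0.14. LRIG3 rose in SCC6, from 15, 14.1, 15.9, 14.8 and 16.3 CPM with PBS to 20.6, 20.5, 25.2, 28.3 and 33.1 CPM with cetuximab in 2a, 2b and days 3 to 5. The groups did not overlap, and the log2 fold change was 0.69 (SE 0.13, edgeR quasi-likelihood adjusted p = 0.00249). In SCC1 it was 13.6 to 15.9 CPM with PBS and 14.1 to 18.1 with cetuximab, and in SCC25 30.6 to 39.0 and 34.2 to 39.5, with log2 fold changes of 0.14 (95% interval -0.03 to 0.32) and 0.03 (-0.13 to 0.20).

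The ubiquitin ligases CBL and CBLB went opposite ways in SCC1. CBL fell in SCC1, from 169, 174, 189.6, 167 and 188 CPM with PBS to 131, 126, 127, 116 and 113 CPM with cetuximab, a log2 fold change of -0.52 (SE 0.06, edgeR quasi-likelihood adjusted p = 1.34e-05) without overlap. In SCC6 it was 58.7 to 88.2 CPM with PBS and 70.6 to 83.9 with cetuximab (log2 fold change -0.08, 95% interval -0.33 to 0.18). In SCC25 it was 89.7 to 106 CPM and 80.2 to 99.3 CPM (-0.19, 95% interval -0.34 to -0.04, edgeR quasi-likelihood adjusted p = 0.0709). With day as a block, CBL passed in SCC25 (edgeR adjusted p = 0.0131), as it did within flow cell A (-0.26, edgeR adjusted p = 0.041) and without the cetuximab library of day 3 (edgeR adjusted p = 0.0235).

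CBLB rose in SCC1 and SCC6. In SCC1 it was 13.6, 13.9, 13.7, 11.7 and 16.8 CPM with PBS and 22.0, 24.4, 22.1, 21.3 and 18.9 CPM with cetuximab, without overlap (log2 fold change 0.66, SE 0.10, edgeR quasi-likelihood adjusted p = 0.000117). The PBS library of day 5, the only SCC1 control on the flow cell of the cetuximab libraries, was the highest of the controls, and with flow cell as a covariate the log2 fold change was 0.39 (edgeR adjusted p = 0.0665). In SCC6 it was 28.8, 29.2, 36.7, 32.7 and 48.3 CPM with PBS and 55.2, 61.6, 75.0, 72.3 and 72.8 CPM with cetuximab in 2a, 2b and days 3 to 5, again without overlap. The log2 fold change there was 0.88 (SE 0.15, edgeR quasi-likelihood adjusted p = 0.00121). In SCC25, CBLB climbed with PBS from 22.0 CPM on day 1 to 35.9 on day 5, while with cetuximab it was 31.0, 32.6, 38.4, 38.3 and 35.5 CPM. Both curves met on day 5, and the log2 fold change over the 5 days was 0.27 (SE 0.14, edgeR quasi-likelihood adjusted p = 0.207). With day as a block it was 0.29 (edgeR adjusted p = 0.0359), so that in SCC25 the block raised the count of members called from 2 to 4, with CBL and CBLB added. The share of all genes called in SCC25 rose with the block as well, from 18.2% to 26.8%.

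SOCS3 was lower with cetuximab in SCC1. With PBS it was 9.30, 15.7, 21.6, 30.2 and 32.1 CPM on days 1 to 5, and with cetuximab 7.34, 9.40, 11.6, 14.4 and 12.5 CPM. It climbed with PBS, from 6.61 CPM on day 0, and was lower with cetuximab on each of the 5 days. The groups overlapped only through PBS of day 1, which lay under the cetuximab levels of days 2 to 5. The log2 fold change was -0.97 (SE 0.33, edgeR quasi-likelihood adjusted p = 0.0378), and the call was lost in 7 of 10 fits without 1 library (highest adjusted p = 0.086) and with PBS of day 0 added (edgeR adjusted p = 0.142). In SCC25 a like climb with PBS, from 5.40 to 16.0 CPM, met 5.37 to 8.02 CPM with cetuximab (log2 fold change -0.60, SE 0.25, edgeR quasi-likelihood adjusted p = 0.125), and without PBS of day 1 the adjusted p was 0.0416. In SCC6, SOCS3 was 17.3 CPM on day 1 (flow cell C) and 6.52 to 10.6 on days 2 to 5 (D) with PBS, and 7.14 to 9.27 in 2a, 2b and day 3 (D) and 18.6 and 16.8 on days 4 and 5 (E) with cetuximab. Its log2 fold change was 0.14 (95% interval -0.51 to 0.78).

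**Figure D4:**
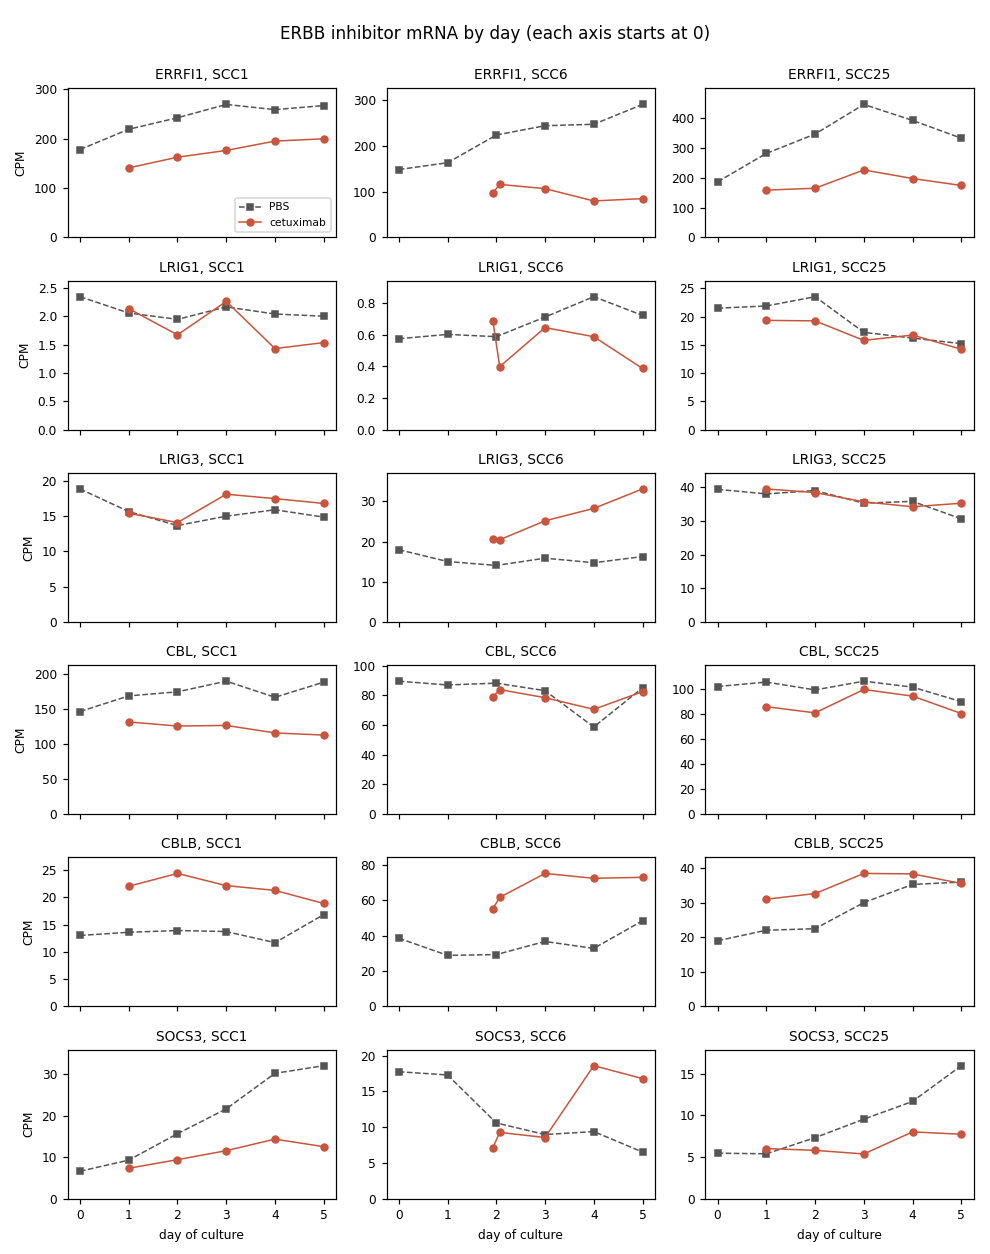
Inhibitor levels in CPM (vertical axis, from 0) by day of culture, with PBS as grey squares and cetuximab as red circles, 1 library per point and the 2 SCC6 libraries labelled day 2 side by side. The ERRFI1 curves are apart on every day in all 3 lines, CBL is apart in SCC1, CBLB in SCC1 and SCC6, LRIG3 in SCC6, and the SOCS3 curves of SCC1 and SCC25 part as the PBS level climbs to 32.1 and 16.0 CPM.

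Over the 30 libraries of days 1 to 5 with the line as a covariate, 7 of 10 members passed (41.4% of all genes tested): EGFR, ERBB2, ERBB3, LRIG3 and CBLB were higher (22.3% of all genes were) and ERRFI1 and CBL lower (19.1%). ERRFI1 had the largest of these changes, -0.93 (SE 0.10), and CBLB the next, 0.61 (SE 0.09), with edgeR quasi-likelihood adjusted p of 2.91e-08 and 5.46e-06. The mean of ERBB3, 0.32 (SE 0.12, edgeR quasi-likelihood adjusted p = 0.0278), stands for lines whose estimates differed in direction, with the fall in SCC6 not firm. With flow cell as a covariate it was 0.21 (edgeR adjusted p = 0.19), and it missed the threshold in 4 of 30 fits without 1 library, those without SCC1 PBS of day 2, 3, 4 or 5 (highest adjusted p = 0.0547).

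Terms for line by treatment tested whether lines differed in their change. They did for 7 of 10 members, EGFR, ERBB3, ERBB4, ERRFI1, LRIG3, CBL and CBLB, and for 26% of all genes. Between SCC6 and SCC1, 6 members differed (19.2% of all genes). The fold change of ERBB3 was lower in SCC6 by 1.31 on the log2 scale (SE 0.14, edgeR quasi-likelihood adjusted p = 7.52e-08), that of EGFR by 0.47 (SE 0.10) and that of ERRFI1 by 0.79 (SE 0.20), while those of LRIG3 and CBL were higher by 0.58 (SE 0.14) and 0.47 (SE 0.12). ERBB4 was the sixth. Between SCC25 and SCC1, EGFR and ERBB4 differed (8.5% of all genes), with EGFR lower in SCC25 by 0.48 (SE 0.10, edgeR quasi-likelihood adjusted p = 0.000919). With line and day as a block ERBB3 and CBL passed as well, at edgeR adjusted p of 0.0336 and 0.0198. Between SCC25 and SCC6, ERBB2, ERBB3, LRIG3 and CBLB differed (17.5% of all genes), with ERBB3 higher in SCC25 by 0.92 (SE 0.14) and the other 3 lower by 0.65, 0.67 and 0.63, and ERBB2 was lost with the block (edgeR adjusted p = 0.0732) and in 10 of 30 fits without 1 library. With flow cell as a covariate the differences of EGFR, ERBB3 and CBL between lines still passed (edgeR adjusted p = 0.0155, 0.000135 and 0.033) and those of ERBB4, ERRFI1, LRIG3 and CBLB did not. The sizes were then -2.38 for ERBB4, -0.65 for ERRFI1 and 0.38 for LRIG3 (SCC6 minus SCC1, SE 0.97, 0.23 and 0.17) and -0.65 for CBLB (SCC25 minus SCC6, SE 0.24), in the same directions as without the covariate. The difference of CBLB passed in 8 of 30 fits without 1 library (highest adjusted p = 0.11), and those of the other 6 in all 30. For LRIG1 the change in SCC6 minus that in SCC1 was -0.26, with a 95% interval of -0.77 to 0.26.

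The timing of the change was examined by splitting each line into days 1 to 3 and days 4 and 5, with 3 and 2 libraries per treatment. In SCC1, 7 members passed on days 1 to 3 (29.5% of all genes) and 8 on days 4 and 5 (29.8%). SOCS3 passed on days 4 and 5 (-1.21, edgeR quasi-likelihood adjusted p = 0.0247) and not on days 1 to 3 (-0.72, 0.0844), without a difference between the periods that passed. With flow cell as a covariate only CBL passed on days 1 to 3 in SCC1, and 1.03% of all genes did. All PBS libraries of those days sat on another flow cell than the cetuximab libraries. The log2 fold changes of EGFR (0.46), ERBB2 (0.38), ERBB3 (0.82), ERBB4 (2.22) and ERRFI1 (-0.63) were then close to the 0.42, 0.43, 0.83, 2.14 and -0.60 without the covariate, at adjusted p of 0.0578 to 0.351, while that of CBLB was 0.23 (edgeR adjusted p = 0.564). In SCC6, 4 members passed on days 1 to 3 (20.3%) and 5 on days 4 and 5 (37.5%), and in SCC25 3 (7.85%) and 2 (2.77%). In SCC25 the later members were ERBB3 and ERRFI1, whose adjusted p rose to 0.219 and 0.318 at most when 1 library was left out, and 0 members were left in 6 of those 10 fits (without PBS of day 2, 4 or 5, or cetuximab of day 2, 4 or 5).

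The difference between the periods passed for 0 members and 0 genes in every line with edgeR's quasi-likelihood test. At an unadjusted p under 0.05 it held for 1394 genes in SCC1 (EGFR among the members), 5596 in SCC6 (ERBB2, ERRFI1 and SOCS3) and 588 in SCC25 (0 members). With DESeq2 it passed for 31, 2838 and 3 genes, and for ERBB2, ERRFI1 and SOCS3 in SCC6. The differences of these 3 in SCC6, later minus earlier, were 1.05 (SE 0.30), -0.78 (SE 0.22) and 1.67 (SE 0.38) on the log2 scale in edgeR, with quasi-likelihood adjusted p of 0.0958 each, and all 3 passed without PBS of day 1 or of day 3. In SCC6 the later cetuximab libraries were alone on a flow cell, so that period and flow cell cannot be told apart there. EGFR in SCC1 differed by 0.35 (SE 0.10), from 0.42 on days 1 to 3 to 0.77 on days 4 and 5 (edgeR quasi-likelihood adjusted p = 0.672).

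**Figure D5:**
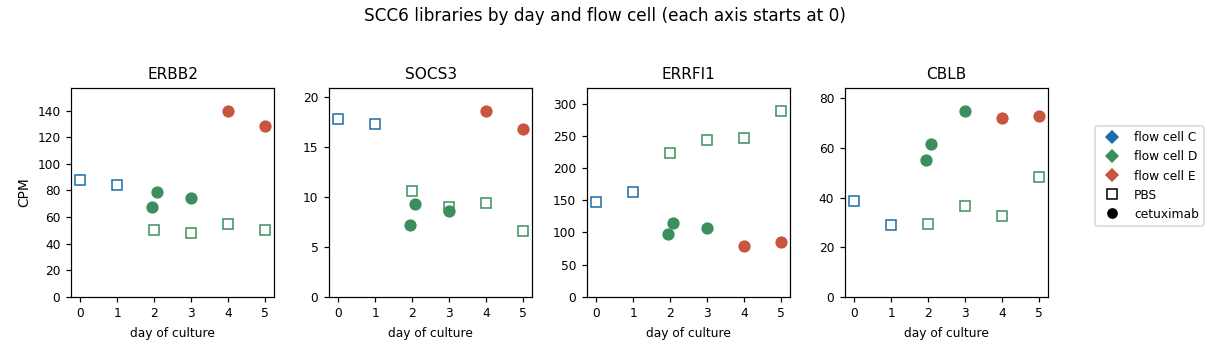
ERBB2, SOCS3, ERRFI1 and CBLB in SCC6 in CPM (vertical axes, from 0) by day of culture, coloured by flow cell, with open squares for PBS and filled circles for cetuximab. ERBB2 and SOCS3 step with the flow cell in both treatments, whereas within flow cell D the cetuximab libraries lie above PBS for ERBB2 and CBLB and below it for ERRFI1.

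Time without cetuximab was followed over the 6 PBS libraries of days 0 to 5 in each line. The control levels of several members were not flat, and SOCS3 had a slope in each line. In SCC1 it rose by 0.49 log2 units per day (SE 0.04, edgeR quasi-likelihood adjusted p = 0.00249), the only one of 9 tested members with a slope (2.68% of all genes), although ERRFI1 was added by DESeq2. In SCC25 SOCS3 rose by 0.33 per day (SE 0.03, edgeR quasi-likelihood adjusted p = 9.68e-06) and CBLB by 0.20 per day (SE 0.02), while LRIG1 and LRIG3 fell by 0.13 and 0.07 per day (SE 0.03 and 0.02), 4 of 9 tested members where 11% of all genes had a slope. The fall of LRIG3 passed in 1 of 6 fits without 1 library (highest adjusted p = 0.301) and did not pass over days 1 to 5 (edgeR adjusted p = 0.143). That of LRIG1 was lost without day 5 (edgeR adjusted p = 0.065). All 6 of these libraries were on flow cell A. In SCC6, ERRFI1 rose by 0.19 per day (SE 0.03) and ERBB2 and SOCS3 fell by 0.18 and 0.29 per day (SE 0.05 and 0.04), 3 of 9 (32.5% of all genes). Within flow cell D, days 2 to 5, these slopes were 0.11 for ERRFI1 (edgeR adjusted p = 0.0683), 0.01 for ERBB2 (0.907) and -0.20 for SOCS3 (0.0901), and that of CBLB was 0.20 (0.0436). EGFR had slopes of 0.002, 0.003 and 0.027 per day in SCC1, SCC6 and SCC25, and none passed.

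The rest of the pathway was counted from lists of related genes. Beside each list count, the shares called higher and lower over all genes were 22.5% and 22% in SCC1. They were 15.5% and 14.5% in SCC6, and 8.72% and 9.47% in SCC25. All 3 lines had genes of ERK output and feedback, transcripts made when ERK is active, called lower and none called higher: 13 of 17 in SCC1, 16 of 17 in SCC6 and 13 of 17 in SCC25, with median log2 fold changes of -1.89, -1.53 and -0.97. EGR1, an immediate early transcription factor, had log2 fold changes of -3.64, -4.35 and -2.44 in SCC1, SCC6 and SCC25, and DUSP5, an ERK phosphatase, fell by 2.72 in SCC6 and 1.34 in SCC25. Of the ERBB ligands, 3 of 9 tested were higher and 4 lower in SCC1. In SCC6 it was 2 higher and 6 lower of 9, and in SCC25 2 higher and 5 lower of 11. In the same order of lines, the log2 fold changes of AREG, a ligand of EGFR, were -1.53, -3.06 and -1.118, and those of HBEGF, a ligand of EGFR and ERBB4, were -2.99, -2 and -1.04. Each of these falls passed the edgeR quasi-likelihood test, the weakest at an adjusted p of 0.000839.

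The other negative regulators of ERBB and related receptors were mixed, with 6 of 23 higher and 9 lower in SCC1. In SCC6 the counts were 2 higher and 4 lower, and in SCC25 0 higher and 6 lower. SH2B3, an adaptor that restrains cytokine receptor signalling, fell by 2.26 in SCC1 and 0.44 in SCC25, and PTPRK, a receptor phosphatase, rose by 0.92 in SCC6 (SE 0.10, edgeR quasi-likelihood adjusted p = 5.83e-05). Among 28 adaptor, RAS-MAPK and PI3K genes, 5 were higher and 8 lower in SCC1, where 22.5% and 22% of all genes were. In SCC6 the counts were 5 higher and 1 lower (15.5% and 14.5% of all genes), and in SCC25 4 higher and 2 lower (8.72% and 9.47%). MAP2K1, which encodes the ERK kinase MEK1, fell by 0.66 in SCC1 and 0.50 in SCC6, and GAB1, a docking protein for PI3K, rose by 0.60 in SCC1 and 0.45 in SCC25. Of 14 genes of the JAK-STAT3 and IL6 axis, in which SOCS3 is the feedback inhibitor, 2 were higher and 4 lower in SCC1. In SCC6 the counts were 3 higher and 4 lower, and in SCC25 0 higher and 2 lower. LIF, an IL6-family cytokine, fell by 2.93 in SCC1 and 1.26 in SCC6.

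Markers of other states moved with the treatment too, and their part in the changes of the members was not tested. Of the 7 squamous epithelial markers 6 were called higher and 1 lower in SCC1, 3 higher and 2 lower in SCC6, and 2 higher and 0 lower in SCC25. The marker that fell in both SCC1 and SCC6 was EPCAM, an epithelial adhesion protein (log2 fold changes -0.73 and -0.93), and DSG3, a desmosomal cadherin, fell in SCC6 (-0.995) but rose in SCC1 (2.11). The summed level of the 7 squamous epithelial markers was 1340 to 2550 CPM with PBS and 6010 to 9770 with cetuximab in SCC1, 1280 to 2020 and 1750 to 2740 in SCC6, and 9130 to 13800 and 11700 to 13500 in SCC25. That of 8 proliferation genes was 1400 to 1770 and 940 to 1330 CPM in SCC1, 1710 to 1960 and 1410 to 2090 in SCC6, and 1370 to 1620 and 1110 to 1350 in SCC25. The 6 fibroblast markers summed to 20.6 to 32.6 CPM with PBS and 48.1 to 145 with cetuximab in SCC1, 2.77 to 5.12 and 8.70 to 101 in SCC6, and 118 to 141 and 151 to 232 in SCC25. In the libraries where they were highest COL1A2 reached 130 CPM, COL1A1 91.6, DCN 11.6, PDGFRB 8.68, THY1 3.31 and PDGFRA 1.65. DCN and THY1 were at 0 in at least 1 library. The 5 immune markers summed to 18.6 to 52.9 and 8.19 to 16.7 CPM in SCC1, 16.5 to 18.4 and 4.13 to 7.14 in SCC6, and 166 to 236 and 148 to 176 in SCC25, with CD68 at up to 234 CPM. Of the 4 endothelial markers 3 were tested in SCC1, 1 in SCC6 and 3 in SCC25, and none of those tested passed.

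The genes whose levels ran most like those of 9 members were found over the 33 libraries, after the mean of each line was removed, among 9928 genes. These correlations describe libraries that share flow cells and days, and they hold the change with cetuximab, as the mean of each treatment was not removed. EGFR ran most like ATP2B4 (Pearson r = 0.915), SLC22A5 (0.913) and PERP (0.897), ERBB2 like DGCR2 (0.973), CERCAM (0.968) and ZBTB4 (0.964), and ERBB3 like ITGB8 (0.877), FXYD3 (0.859) and IMPA2 (0.856). ERBB4, near the limit of detection at 1 to 38 estimated counts, ran most like CDR2L (0.851), TIMP3 (0.835) and PKP1 (0.834). ERRFI1 ran like METAP1 (0.926), RPL4 (0.923) and MYC (0.917), and CBLB like RAB32 (0.940), ANXA4 (0.929) and OTUD1 (0.922). For LRIG3 they were TRIM32 (0.902), FOXJ2 (0.895) and CLTCL1 (0.889), for SOCS3 ZC3H12A (0.865), HK1 (0.856) and PREB (0.845), and for LRIG1 NDUFAF6 (0.729), CKLF (0.71) and LRR1 (0.702). LRIG1 had the least alike neighbours of these.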

How the data were processed

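The authors deposited 1 table of estimated counts per gene symbol from bulk RNA sequencing of poly(A) RNA, made with Salmon 0.8.2 (per the submitters' processing notes, which also name hg19 and GRCh37) and imported with tximport. The counts were not normalised between libraries, and 63.2% of the deposited values were whole numbers. They were rounded to whole numbers here. Total counts ran from 28508758 to 80727478 over 33 libraries, and low counts limit ERBB4 and, in SCC6, LRIG1.

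Groups came from the sample titles, with days 1 to 5 as the libraries of a group and PBS of day 0 used in the time trends only. In R 4.3.3, filterByExpr removed the genes of low count, TMM factors scaled the libraries, and two-sided tests were made with edgeR 4.0.16 (glmQLFit with robust = TRUE, quasi-likelihood F test) and Benjamini-Hochberg adjustment over all genes tested, a call being an adjusted p under 0.05. Standard errors and 95% intervals were derived from the F statistic. CPM in the text use TMM factors over all 33 libraries. A pseudocount of 0.1 CPM was added before log2 for the most alike genes and for the search for libraries that stood apart. Levels per kb divide CPM by the canonical transcript length in GENCODE on GRCh37, read with Python 3.11.15 and pandas 2.3.3. Of the related lists, the text names up to 3 genes per line, those called with the greatest change and with log2 CPM averaging 3 or more, and of the most alike genes the first 3.

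The members and lists were chosen with earlier results of these data known. Libraries of a line and day share the day of culture in their labels, so day pairs them. As deviations from the treatment mean, same-day libraries correlated at 0.095 to 0.549 in SCC1 and SCC25 (10 pairs) and -0.209 to 0.595 in SCC6 (days 3 to 5). Pairs of different days ran from -0.443 to 0.387 in SCC1, -0.675 to 0.708 in SCC6 and -0.637 to 0.583 in SCC25. Alternatives were DESeq2 1.42.0, RLE size factors, no scaling factor, no filter, a minimum change of 1 on the log2 scale, day as a block, flow cell as a covariate, PBS of day 0 added, days 1 to 5 for the trends and each library left out. Fits within a flow cell were chosen after seeing the data. The fits were tested on simulated data. The most alike genes of CBL and the upstream window of SOCS3 are not reported here.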

Additional observations from a re-analysis of the deposited data

Results flagged for a closer look

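In 60 groups of 5 libraries, 3 held a library that stood apart from the other 4, and chance gives about 1 in 20. The gap to the nearest library was taken as a share of the range of the group, both on the log2 scale of CPM. It was 0.773 for ERBB2 in SCC6 with PBS on day 1, 0.842 for ERBB4 in SCC1 with PBS on day 2 and 0.855 for CBL in SCC6 with PBS on day 4. The first was the only PBS library of its group on flow cell C, at 84.3 CPM where the others were at 47.9 to 54.5. The second rested on 1 estimated count against 3 or 4. CBL stood at 58.7 CPM on day 4 and at 83.1 to 88.2 on the other days, and without that library the log2 fold change of CBL in SCC6 was -0.18 (edgeR quasi-likelihood adjusted p = 0.176).

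The change with cetuximab differed between lines for 7 members, by edgeR's quasi-likelihood test of both line-by-treatment terms. The adjusted p was 0.000258 for EGFR, 1.71e-07 for ERBB3, 0.000244 for ERBB4, 0.0101 for ERRFI1, 0.000807 for LRIG3, 0.0121 for CBL and 0.0478 for CBLB. Of these, ERBB3 alone had changes called in opposite directions, and its call in SCC6 held in 3 of 10 fits without 1 library. With flow cell as a covariate, the differences of EGFR, ERBB3 and CBL passed (edgeR adjusted p = 0.0155, 0.000135 and 0.033), and those of ERBB4, ERRFI1, LRIG3 and CBLB had adjusted p of 0.0606, 0.119, 0.106 and 0.142.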

How the results depend on the processing

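With day as a block, 8 members passed in SCC1, 4 in SCC6 and 4 in SCC25. Of all genes 8477, 4922 and 5111 then passed in these lines, where 8005, 5226 and 3474 did without the block. Of the differences between lines, 4 passed with the block for SCC25 against SCC1 (9.69% of all genes). The pairing by day changed no other call among these comparisons than those of ERBB2, ERBB3, CBL and CBLB given above. A minimum change of 1 on the log2 scale left 1 member in SCC1 (ERBB4), 1 in SCC6 (ERRFI1) and 0 in SCC25. The shares of all genes were then 8.7%, 9.69% and 1.56%. No filter on low counts left 3 members in SCC6 (12.1% of the genes then tested). With flow cell as a covariate, 5 members passed in SCC1 (23.2% of all genes, 44.5% without it), and 3 differed between lines (14.2%, 26% without it). By pair these were 3 for SCC6 against SCC1 (10.9%), 1 for SCC25 against SCC1 (4.29%) and 1 for SCC25 against SCC6 (7.98%). On days 1 to 3, 1 member then passed in SCC1 (1.03%) and 5 in SCC25 (16.8%). DESeq2 called 3 differences between periods in SCC6 (14.8% of all genes) and 2 PBS slopes in SCC1 (7.8%). Within flow cell D, 1 PBS slope passed in SCC6 (8.78% of all genes), and that of ERBB2 turned to 0.012. Apart from that of the minimum change, the cause of these shifts was not tested.

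Leaving out 1 library gave 3 to 5 members in SCC6 (3 without PBS of day 2 or 3 or cetuximab of day 4 or 5), 2 to 4 in SCC25 (4 without cetuximab of day 3), and 2 to 4 differences between SCC25 and SCC6 (2 without SCC6 PBS of day 2 or SCC25 PBS of day 5). By period it gave 5 to 8 on days 4 and 5 in SCC1 (5 without cetuximab of day 4), 2 to 5 on days 1 to 3 (2 without PBS of day 2 or cetuximab of day 3) and 3 to 5 on days 4 and 5 in SCC6 (3 without cetuximab of day 4), 2 to 5 (5 without cetuximab of day 3) and 0 to 3 in SCC25, and 0 to 3 differences between periods in SCC6. It gave 1 to 3 PBS slopes in SCC1 and 2 to 4 in SCC25, where PBS of day 5 decided both. In all, 374 of 415 refitted counts stayed within 1.5 times the reported one, and of 3997 refitted member values 185 lost a call and 71 gained one. The SCC6 change by period could not be fitted with flow cell as a covariate. Depth limits ERBB4.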
